A study of Mus musculus with 12 samples.

Results

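Cultured type II alveolar epithelial cells without Gnaq and Gna11 were compared with the same kind of cells without Gna12 and Gna13. All 3 Gnaq/Gna11 double knockout arrays and all 3 Gna12/Gna13 double knockout arrays were taken by their labels, 6 of the 12 arrays of the series, and the comparison ran over all 18193 genes that the platform names through a probe set with 1 gene. Where a gene had several probe sets, the brightest on average over all 12 arrays stood for it. The remaining 6 arrays are 3 of Gna11 and 3 of Gna12 single knockout cells, which lack 1 of the genes of each double knockout. Expression was measured on Affymetrix arrays as log2 values, so a difference of 1 is a 2-fold difference.

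The cells came from mouse lung and were grown for 7 days on collagen-coated plates, untreated, in a bronchial epithelial growth medium with 10 µg/ml keratinocyte growth factor and without hydrocortisone. The labels write the genotypes as Gnaq/Ga11 ko and Gna12/Ga13 ko. The sources used here give neither strain, sex, age and kind of allele nor any promoter driving a recombinase, and the labels do not say whether the 3 arrays of a group stem from separate animals or cultures. The p-values therefore measure only the spread between these arrays, which may be technical. A position code in the labels carries the number 2 on every array lacking Gna11 and the number 4 on every array lacking Gna12, so this number and the genotype cannot be told apart in the comparison of the doubles. The letters E, F and G of the code occur once in each double knockout group.

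G proteins pass signals from membrane receptors to the inside of the cell through an alpha subunit and a beta-gamma pair. The alpha subunits encoded by Gnaq and Gna11 activate phospholipase C-beta, which raises calcium and activates protein kinase C. Those encoded by Gna12 and Gna13 act on the actin cytoskeleton and on transcription through SRF and YAP. Type II cells make and secrete the lipids and proteins of surfactant and give rise to the flat type I cells of the alveolus, and lung epithelium also carries enzymes that detoxify foreign compounds.

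Several properties of the samples bear on the comparison. Sftpc, the gene of surfactant protein C and a marker of the labelled cell type, had a level of 13.26 ± 0.0356 (SD, n = 3) in Gnaq/Gna11 and 13.11 ± 0.206 in Gna12/Gna13 cells. Markers of airway secretory, goblet and ciliated cells were clearly expressed as well. The mean of 14 such markers lay between 10.36 and 10.79 on the Gnaq/Gna11 arrays and between 10.17 and 10.74 on the Gna12/Gna13 arrays. Leukocyte markers were also clearly expressed. The mean of the 20 pan-leukocyte markers lay between 9.09 and 9.19 on the Gnaq/Gna11 arrays and between 8.87 and 9.66 on the Gna12/Gna13 arrays, where the median probe set was at 5.101, and 19 of the 20 were at or above that median. In such bulk samples, fewer cells of a type and less RNA per cell cannot be told apart. The Y-linked gene Eif2s3y was between 3.33 and 3.54 on all Gnaq/Gna11 arrays, while on the Gna12/Gna13 arrays it was 7.37, 3.07 and 7.35. It was 7.11, 3.56 and 7.00 in Gna11 and 6.91, 3.30 and 7.37 in Gna12 cells. Only the Gnaq/Gna11 group thus lacked arrays with a high level. This imbalance lies in the comparison of the doubles and in its departure from the singles, but not between the singles. RNA integrity was read from the Gapdh controls as the 3′ minus the 5′ probe set, which was 3.14 ± 0.125 and 3.15 ± 0.174 (SD, n = 3) in these groups. Arrays of a double knockout group correlated with each other at 0.980 to 0.984 and with the other group at 0.964 to 0.971.

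The targeted genes were read first, in 21 probe sets, of which 16 were lower in the arrays lacking the gene and 6 separated the groups without overlap. For Gnaq, 4 of 7 probe sets were lower and 1 was separate. That probe set read 7.07, 7.02 and 6.21 on the Gnaq/Gna11 arrays and 7.76, 8.53 and 8.15 on the Gna12/Gna13 arrays, a difference of -1.38. Both Gna11 probe sets were lower, and 1 of them was 7.31, 7.06 and 7.39 without the gene against 8.52, 8.57 and 8.48 with it, a difference of -1.27. Of the Gna12 probe sets, 4 of 5 were lower in Gna12/Gna13 cells, though by no more than 0.30, and the brightest was 0.26 higher there. Of the Gna13 probe sets, 6 of 7 were lower, and the widest separate difference was -1.06 (6.17, 7.61 and 7.76 without the gene against 8.08, 8.62 and 8.02 with it). The smallest p that an exact permutation test of 3 against 3 arrays can give is 0.1. Over all 12 arrays the exact permutation test, two-sided and adjusted over the 21 probe sets, gave 0.0382 for that Gnaq and that Gna13 probe set and 0.0227 for that Gna11 probe set. The Gna12 probe sets that were separate gave 0.0303 and 0.0227. For the brightest probe sets the same test gave 0.136 (Gnaq), 0.9545 (Gna11), 0.0682 (Gna12) and 0.167 (Gna13). Those of Gna11 and Gna12 were higher over the 12 arrays without the gene, by 0.13 and 0.28. None of the 4 genes was called in the test across all genes. The sources used here do not give the deleted parts, and probe sets lying outside them are no check.

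Between the double knockouts, 1109 of 18193 genes (6.10%) differed at an adjusted p under 0.05 in limma, 492 (2.70%) higher and 617 (3.39%) lower in Gnaq/Gna11 cells. At least 2-fold differences were reached by 605 of them, 262 higher and 343 lower. Arrays without overlap were found for 5173 genes (28.4%), and for 1108 of the 1109 genes called. The median difference over all genes was 0.04. The count fell to between 369 and 842 when 1 array was left out, with 369 called without replicate 2 of Gna12/Gna13, 565 without its replicate 1, 521 without replicate 2 and 525 without replicate 3 of Gnaq/Gna11.

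The single knockouts offer the same split of the position number. Their levels do not enter the differences between the doubles, but all 12 arrays share the estimate of the spread on which the calls rest, and 843 genes were called from the 6 double knockout arrays alone. Between Gna11 and Gna12 cells 513 genes (2.82%) were called, a count that fell to 0 with the pan-leukocyte mean as covariate and to 0 with the Gapdh measure, so every call between the singles given here is one without these covariates. Neither measure overlapped between the singles. The pan-leukocyte mean was 8.2 to 8.75 in Gna11 and 9.27 to 9.81 in Gna12 cells, and the Gapdh measure 3.46 to 4.03 and 2.67 to 3.25. Each measure can therefore hardly be told apart from the genotype of the singles in these fits. Without these covariates 3795 genes had an unadjusted p under 0.05 in limma. Of the 513, 150 were also called between the doubles, which is 29.2% of the calls between the singles and 13.5% of those between the doubles, and all 150 differed in the same direction. Of the 1109 genes called between the doubles, 908 (81.9%) had the same sign between the singles, against 66.6% of all genes. Pearson's r across genes of the 2 differences was 0.672 over the called genes and 0.410 over all genes, where genes are no independent replicates. The called genes were chosen by their difference between the doubles. That choice by itself can raise both r and the share with the same sign, so the higher values among called genes are no result. The difference between the doubles departed from that between the singles for 13 genes (0.0715%) at an adjusted p under 0.05 in limma, and 9 of these were called between the doubles, all lower in Gnaq/Gna11 cells. For most genes called between the doubles, then, a difference from the singles was not shown. The main values below therefore stand beside those between the singles.

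**Figure D1:**
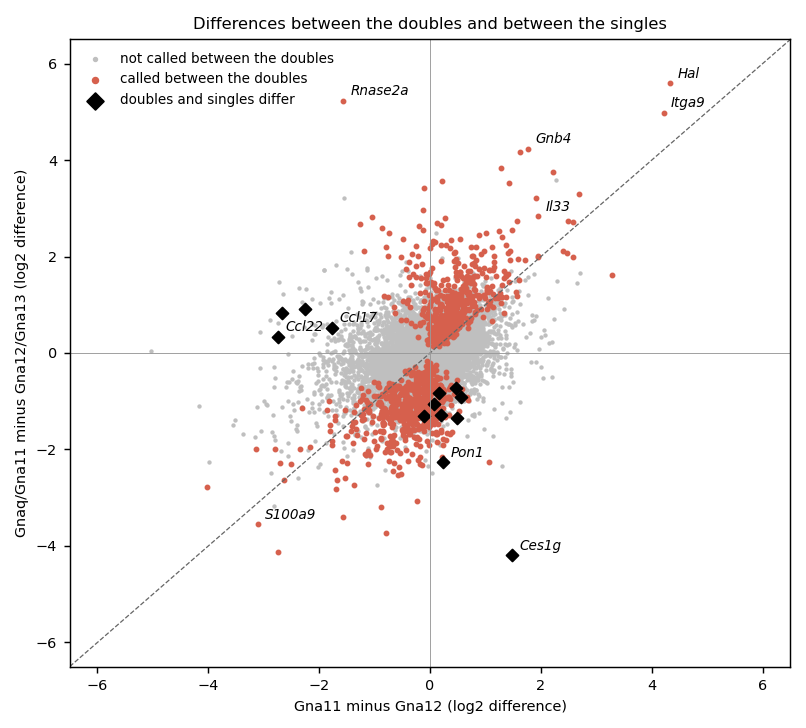
Each point is 1 of 18193 genes, with its log2 difference between Gna11 and Gna12 cells on the x axis and between Gnaq/Gna11 and Gna12/Gna13 cells on the y axis; red points were called between the doubles, black diamonds are the 13 genes whose 2 differences departed from each other, and the dashed line marks equality. Hal and Itga9 lie far up along the dashed line, while Ces1g and Pon1 lie low at singles' values above 0.

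The largest rise belonged to Hal, histidine ammonia-lyase, which starts the breakdown of histidine. Hal read 10.58, 10.04 and 10.67 on the Gnaq/Gna11 arrays and 4.55, 5.07 and 4.88 on the Gna12/Gna13 arrays, a 48.4-fold difference (log2 difference 5.60, SE 0.304, adjusted p = 1.86e-05). The groups lay far apart, and so did the singles, at 9.11 in Gna11 and 4.78 in Gna12 cells. Itga9, the alpha-9 integrin subunit, behaved alike, with 11.08, 10.85 and 10.93 against 6.43, 6.57 and 4.92 (log2 difference 4.98, SE 0.361, adjusted p = 0.000144) and a log2 difference of 4.21 between the singles. The other Itga9 probe sets, at mean levels of 6.14 and 5.43, differed by -0.00 and 0.28 and were not called. Gnb4, a G protein beta subunit, was 9.50, 9.29 and 9.86 against 6.11, 4.86 and 4.98 (log2 difference 4.23, adjusted p = 0.00658), and its other probe sets differed by 0.59 and 1.63 without being called.

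Some large rises had no called counterpart between the singles. Rnase2a, a ribonuclease of the eosinophil-associated family, read 9.44, 9.49 and 11.11 on the Gnaq/Gna11 arrays and 3.54, 4.56 and 6.26 on the Gna12/Gna13 arrays (log2 difference 5.23, SE 0.799, adjusted p = 0.00466). Every Gnaq/Gna11 array was above every Gna12/Gna13 array, which was a condition for choosing the largest rises. The log2 difference between the singles was -1.57 and was not called. Clca1, a secreted protein of goblet cells, was 6.69, 6.78 and 8.23 against 4.33, 3.41 and 3.28, and Fga, the fibrinogen alpha chain, was 6.47, 8.41 and 5.98 against 3.21, 4.08 and 3.31. Their log2 differences were 3.56 and 3.42 between the doubles and 0.21 and -0.11 between the singles, and the departure of doubles from singles had an adjusted p of 0.0569 for Rnase2a and 0.0926 for both Clca1 and Fga, so it did not pass.

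Phgr1 and Veph1 were separated both between the doubles and between the singles. Phgr1, which encodes a small protein rich in proline, histidine and glycine, rose by 4.17 between the doubles and by 1.63 between the singles, and Veph1, which encodes a protein with a pleckstrin homology domain, by 3.84 and 1.28. Ptgds, a prostaglandin D synthase, was 9.34, 10.41 and 8.65 against 5.68, 5.80 and 5.68, and the singles differed by 2.21 without a call. Itln1, a lectin that binds microbial sugars, was 3.52 higher, the acute-phase protein gene Orm2 was 3.21 higher, and Cma1, a mast cell chymase, was 3.29 higher. Between the singles Orm2 and Cma1 were higher by 1.91 and 2.68, both called, and Itln1 by 1.43 without a call. The Cma1 call between the doubles was lost without replicate 2 of Gna12/Gna13 and without replicate 2 or 3 of Gnaq/Gna11.

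The largest fall was that of Ces1g, a carboxylesterase, at 5.48, 5.92 and 5.03 on the Gnaq/Gna11 arrays and 8.36, 10.62 and 10.02 on the Gna12/Gna13 arrays (18.3-fold, log2 difference -4.19, SE 0.592, adjusted p = 0.00333). In the singles the sign was opposite, with 9.12 ± 0.959 (SD, n = 3) in Gna11 and 7.64 ± 0.537 in Gna12 cells. Ces1f, another carboxylesterase, read 5.56, 4.61 and 4.39 against 8.29, 9.10 and 8.38 (log2 difference -3.74, adjusted p = 0.00028). Both are returned to below with other enzymes of detoxification.

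Genes of lipid handling were among the other large falls. Fabp1, a fatty acid binding protein, was 5.89 ± 0.819 against 9.30 ± 0.107 (SD, n = 3, log2 difference -3.41, adjusted p = 0.00345), and its other probe set was lower as well. Azgp1, zinc-alpha-glycoprotein, was 8.47, 7.34 and 7.49 against 11.06, 11.03 and 10.76 (log2 difference -3.19, adjusted p = 0.000588). The arrays did not overlap for either, which was a condition for choosing the largest falls. Pnliprp1, a lipase-related protein, fell by 3.07 and Apoc2, a cofactor of lipoprotein lipase, fell by 2.77 on the log2 scale, and Apoc2 had a still wider difference of -4.02 between the singles.

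The remaining large falls were of mixed function. S100a9, a calcium-binding protein of neutrophils and activated epithelium, was 7.68, 6.30 and 6.66 against 10.85, 10.33 and 10.11 (log2 difference -3.55, adjusted p = 0.0153), and was also lower between the singles (-3.11). Adh7, an alcohol dehydrogenase that acts on retinol, fell by 2.83 on the log2 scale, and Mst1, macrophage-stimulating protein, fell by 2.63 both between the doubles and between the singles. Ankrd33b, with an ankyrin repeat, was spread widely on the Gnaq/Gna11 arrays, at 8.52, 5.33 and 4.62 against 10.39, 10.13 and 10.37. Sncg, gamma-synuclein, fell by 2.73 and Noct, nocturnin, fell by 2.64. When single arrays were left out, calls were lost for Pnliprp1 and Mst1 (without replicate 2 of Gna12/Gna13), S100a9 and Noct (without its replicate 1 or 2), Apoc2 and Sncg (without its replicate 2 or 3) and Ankrd33b (without any of its 3). Leaving out replicate 2 of Gnaq/Gna11 lost those of Mst1, S100a9, Ankrd33b, Sncg and Noct, leaving out its replicate 3 those of S100a9, Ankrd33b, Sncg, Noct and Apoc2, and leaving out its replicate 1 that of Apoc2.

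**Figure D2:**
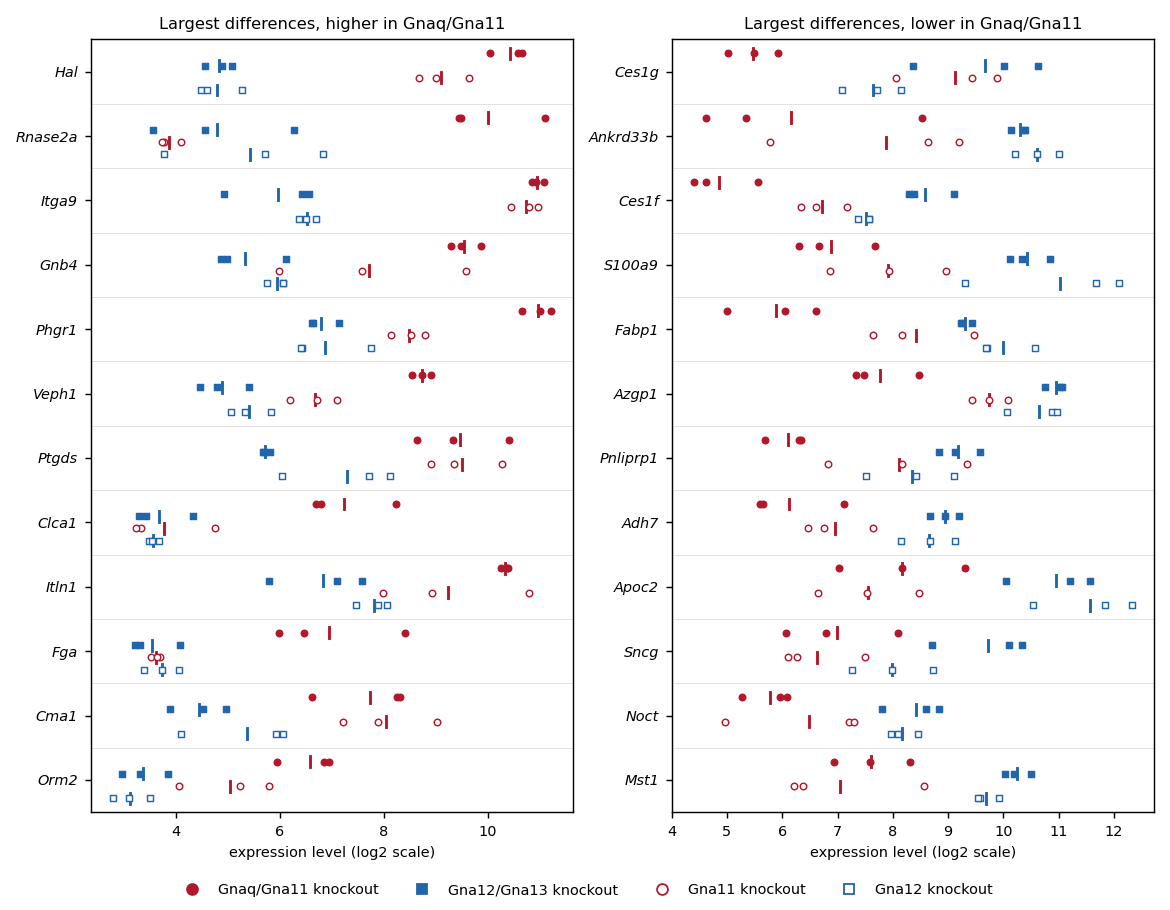
Levels on the log2 scale (x axis) of the 12 genes with the largest rise and the 12 with the largest fall in Gnaq/Gna11 against Gna12/Gna13 cells; filled symbols are the double knockout arrays, open symbols the single knockout arrays, each group has 3 arrays and vertical ticks are group means. The genes were chosen among those whose filled circles and filled squares do not overlap, so their separation in every row is no result. For Hal and Itga9 the open symbols part in the same way.

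Many enzymes that detoxify foreign and reactive compounds were lower in Gnaq/Gna11 cells, and others did not pass the test. NRF2 is a transcription factor that, when oxidants or electrophiles release it from KEAP1, binds the antioxidant response element and activates genes of glutathione synthesis and conjugation. Carboxylesterases, cytochromes P450, flavin monooxygenases and aldehyde oxidases carry out the first attack on many compounds, and glutathione S-transferases the conjugation that follows. Across the lists of carboxylesterases and oxidases, glutathione S-transferases, other NRF2 targets and aldehyde dehydrogenases, 33 of 76 measured genes were called lower, 2 higher, and 41 did not pass, where 3.39% of all genes were called lower. Most members lay at or above the median level, where 8.46% of all genes were called in either direction. The lists were chosen with earlier results of these data known, which limits what these shares can show. The median difference of the 76 was -0.56 between the doubles and 0.00 between the singles, beside 0.04 and 0.06 over all genes. Between the singles 10 of the 76 were called in either direction, beside 2.82% of all genes. These families include paralogs with similar sequences, and some probe sets may read several of them.

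Among carboxylesterases and oxidases, 13 of 23 measured members were lower and none was higher, with a median of -0.76 between the doubles and 0.10 between the singles. Pon1, a paraoxonase that hydrolyses lactones and organophosphates, read 9.03, 9.24 and 8.86 against 11.48, 11.55 and 10.90 (4.81-fold, log2 difference -2.27, SE 0.195, adjusted p = 0.00028). The singles lay at 11.15 ± 0.156 and 10.91 ± 0.291 (SD, n = 3), near the Gna12/Gna13 level. The monooxygenases Fmo1, Fmo5 and Fmo2 were lower by -2.50, -1.67 and -1.66 on the log2 scale, Ces1d by -2.24, and the P450 gene Cyp1b1 was 3.99-fold lower. Aox1 and Aox3, aldehyde oxidases, differed by -1.74 and -1.34, Cyp4b1 by -1.03, Cyp2s1 by -0.54 and Cyp2b10 by -0.26. Further Fmo2 probe sets differed by -1.53, -1.21, -0.23 and -0.00.

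Of the glutathione S-transferases, 8 of 21 were lower and 1, Gstt1 (0.46), was higher. Gstm2 showed it with little spread, at 10.12, 9.90 and 10.18 against 11.39, 11.51 and 11.18 (log2 difference -1.30, SE 0.117, adjusted p = 0.00028), and the singles were at 11.38 and 11.19. Gsta2 was 6.78, 6.73 and 6.64 against 8.93, 9.52 and 8.68 (log2 difference -2.32, adjusted p = 0.000754). The others were Mgst2 (-1.43), Gstm1 (-0.99), Gsta4 (-0.96), Gstz1 (-0.95), Mgst1 (-0.70) and Gstp1 (-0.36). Between the singles, every one of these 8 genes differed by less than 0.3 in either direction and none was called. Between the singles 4 other members of the 21 were called, Gstm3 (1.30), Gstt2 (0.69) and Gstk1 (0.46) higher and Gstm4 (-0.89) lower in Gna11 cells, and none of these 4 was called between the doubles.

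Of the other NRF2 targets, 8 of 15 were lower and none higher. Gclm, the modifier subunit of the enzyme that limits glutathione synthesis, was 9.22, 9.19 and 9.09 against 10.54, 10.63 and 10.71 (log2 difference -1.46, SE 0.195, adjusted p = 0.00276). Its catalytic partner Gclc was 8.14, 8.55 and 8.99 against 10.38, 10.49 and 9.95 (-1.71). Between the singles these subunits differed by -0.84 (called) and -1.50 (not called). Cbr3, a carbonyl reductase, was lower by -1.87, the glutathione peroxidase Gpx2 by -1.24, sulfiredoxin Srxn1 by -1.11, and Taldo1, Cbr1 and Pgd by -0.63, -0.56 and -0.42. Taldo1 and Pgd were as low or lower between the singles, at -0.94 and -0.43 (both called), and in all 5 of the 15 members were called there, with a median of -0.46. The classical targets Nqo1, Hmox1 and Txnrd1 differed by -1.06, -1.26 and -0.28 with adjusted p = 0.142, 0.0668 and 0.697, and did not pass. The less bright probe sets of Txnrd1, tested among all probe sets, were lower by -1.44 and -1.19 (adjusted p = 0.0455 and 0.0283). Leaving out replicate 2 of either group left 5 of this list called.

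The promoters of Gclm and Mgst1 are shown because they alone, among the lowered genes of these lists, held the core of the antioxidant response element within the 250 bases before the start of the gene. The core was searched as TGACNNNGC on both strands. It occurred in 2 of the 26 lowered members with a promoter sequence (7.69%), in 78 of 513 genes called lower (15.2%) and in 1944 of 14452 genes with a sequence (13.5%). Capitals mark the match, which lies on the reverse strand in both, and the sequences are those of RefSeq on GRCm38.p6, 5′ to 3′ on the strand of the gene. That of Mgst1 is chr6:138140277-138140526 on the plus strand, with the match starting at position -56 from the start of the gene, and that of Gclm is chr3:122245307-122245556 on the plus strand, with the match starting at position -134.
Mgst1: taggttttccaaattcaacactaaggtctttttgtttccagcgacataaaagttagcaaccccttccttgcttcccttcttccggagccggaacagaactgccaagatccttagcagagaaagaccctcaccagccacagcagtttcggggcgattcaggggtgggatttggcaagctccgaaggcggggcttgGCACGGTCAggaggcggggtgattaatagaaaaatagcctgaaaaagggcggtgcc
Gclm: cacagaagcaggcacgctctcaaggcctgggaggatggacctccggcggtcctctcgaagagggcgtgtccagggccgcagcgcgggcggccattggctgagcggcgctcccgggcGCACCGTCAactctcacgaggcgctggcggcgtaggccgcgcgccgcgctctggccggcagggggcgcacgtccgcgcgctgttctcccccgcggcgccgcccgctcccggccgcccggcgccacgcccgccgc
A match describes these letters only, and the window of 250 bases leaves out more distant elements.

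Among the aldehyde dehydrogenases, which oxidise aldehydes to acids, 4 of 17 were lower. Aldh3a1 was 7.70, 6.19 and 6.55 against 9.15, 9.62 and 9.25 (log2 difference -2.53, adjusted p = 0.0055). Aldh1a1, which makes retinoic acid, differed by -0.72, Aldh3b1 by -0.58 and Aldh2 by -0.35, and Aldh1l1, an enzyme of folate metabolism, was 0.91 higher. The list stood at 3 calls without replicate 2 of Gnaq/Gna11 and at 3 with the mean of all probe sets of a gene.

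The fall of these enzymes was compared with the singles directly. Of the 33 lowered genes, 31 had a more negative difference between the doubles than between the singles. These genes were chosen by their difference between the doubles, so that count is largely set by the choice and is no result. For Pon1, Gstm2, Ces1g and Aox3 the departure from the singles was called. These 4 calls did not hold with the pan-leukocyte mean as covariate or with the Gapdh measure as covariate. Pon1 departed by -2.39 (adjusted p = 0.202 in limma) and -2.62 (0.138) in those fits, and Ces1g by -7.38 (0.110) and -5.42 (0.256). With Eif2s3y as a covariate the calls of Pon1 and Gstm2 held (adjusted p = 0.0181 and 0.0143 in limma). Those of Ces1g and Aox3 did not (0.0793 for each). For the differences between the doubles themselves, taking as a covariate the pan-leukocyte mean, the Eif2s3y level or the Gapdh 3′ minus 5′ difference, 31, 32 and 32 of the 76 were lower, and 26 to 32 were lower with 1 array left out. Ephx1, an epoxide hydrolase outside the lists, was at 10.00, 10.30 and 10.14 against 11.10, 11.41 and 11.13 (log2 difference -1.07, adjusted p = 0.000854), with 0.06 between the singles.

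**Figure D3:**
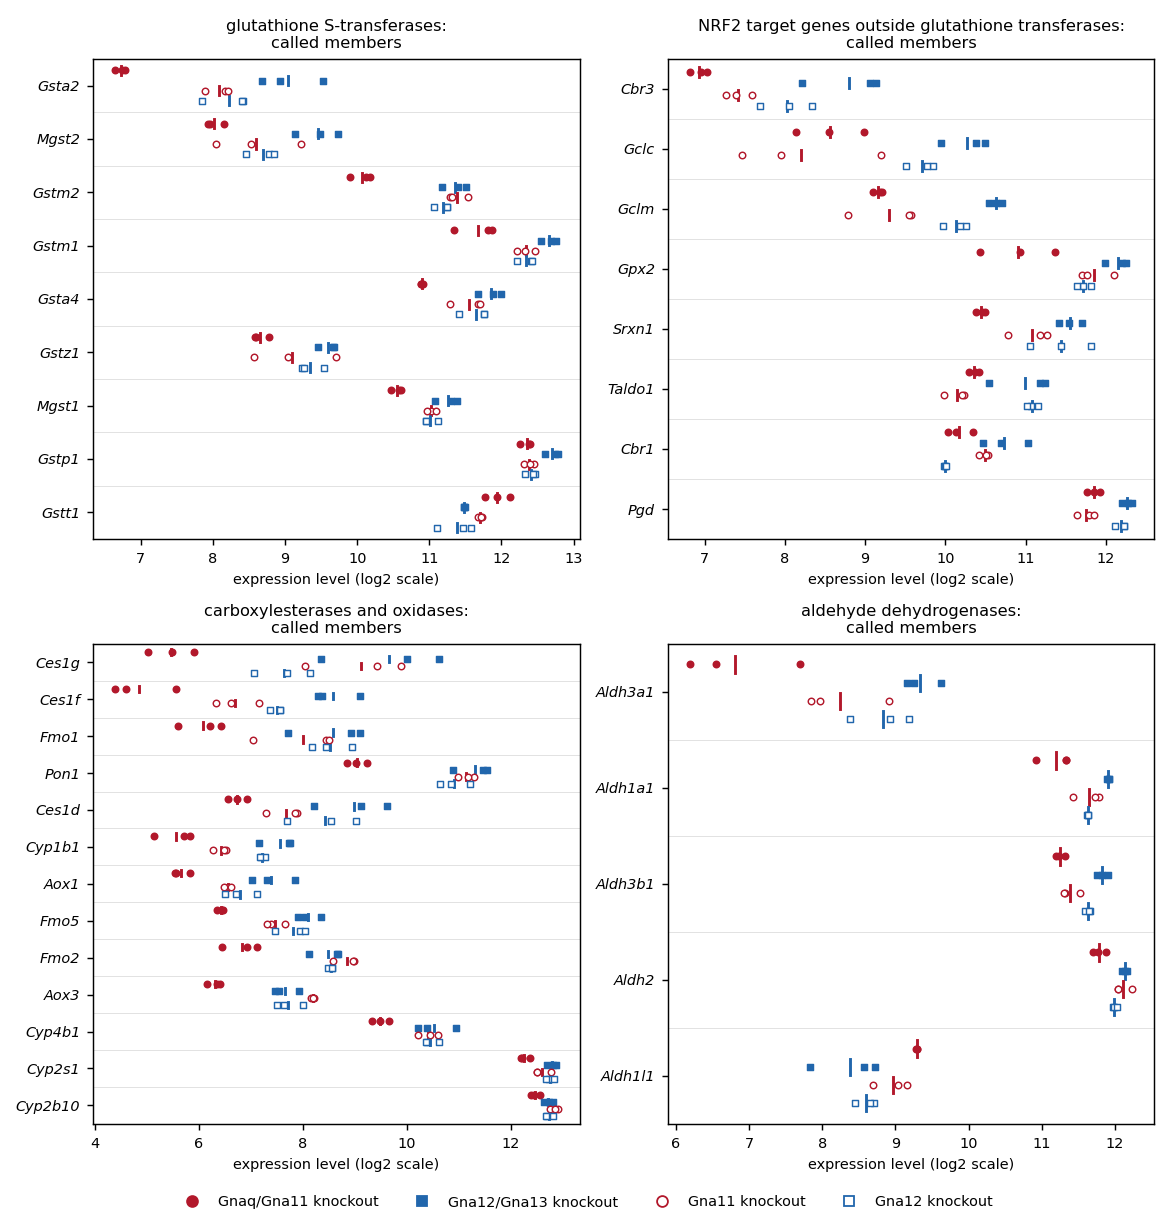
Levels on the log2 scale (x axis) of the called members of 4 lists of detoxifying enzymes by array, with 3 arrays per group; filled symbols are double knockouts, open symbols single knockouts and vertical ticks group means. The filled circles of Gnaq/Gna11 lie to the left of the filled squares of Gna12/Gna13 except for Gstt1 and Aldh1l1, and for Pon1, Gstm2 and Aox3 the open symbols of both singles lie near the squares.

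Some markers of type II cells were higher in Gnaq/Gna11 cells. Of 14 measured markers 6 rose, 8 did not pass and none fell, where 2.70% of all genes were called higher, 13 had a positive difference, and the median was 0.41, beside 0.17 between the singles. The mean of the 14 markers was 11.82 to 11.94 on the Gnaq/Gna11 arrays and 11.14 to 11.43 on the Gna12/Gna13 arrays. Slc34a2, the phosphate transporter of type II cells, was 9.71, 10.14 and 9.81 against 8.47, 8.02 and 8.35 (3.04-fold, log2 difference 1.60, SE 0.200, adjusted p = 0.00206), and 0.85 between the singles, also called. Abca3, which pumps lipids into lamellar bodies, was 12.03, 12.05 and 12.14 against 11.41, 10.90 and 11.20 (0.91). Lpcat1, an enzyme that makes surfactant phosphatidylcholine, rose by 0.78, the aspartic protease Napsa by 0.75, Muc1 by 0.63 and the surfactant protein gene Sftpb by 0.54.

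The surfactant genes did not all pass. Sftpc, Sftpa1 and Sftpd, all near the top of the scale, differed by 0.16, 0.02 and 0.11 with adjusted p = 0.494, 0.81 and 0.0875. Taking the pan-leukocyte mean into the model left 4 type II markers higher and taking Eif2s3y gave 8, and 3 remained called without replicate 2 or replicate 3 of Gnaq/Gna11. None of 13 markers of type I cells was called, with a median of -0.11. With Eif2s3y as a covariate 5 of the 13 were higher, so for this list the count moved with that gene.

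Enzymes of fatty acid and surfactant lipid synthesis showed 5 members of 20 higher and 2 lower (35% called, beside 6.10% of all genes). Gpam, which adds the first fatty acid to glycerol phosphate, was 10.72, 10.72 and 10.76 against 9.68, 9.31 and 9.72 (log2 difference 1.16, SE 0.163, adjusted p = 0.00322), and 1.37 higher between the singles, also called. The desaturases Fads2 and Fads1 rose by 1.15 and 1.10, Fasn, fatty acid synthase, by 0.81 and the elongase Elovl1 by 0.28. Fabp1, given above, and Dgat2, which makes triglyceride, fell by 3.41 and 0.75. The list had 4 calls without replicate 1 of Gna12/Gna13 or without replicate 2 or 3 of Gnaq/Gna11, and 3 without replicate 2 of Gna12/Gna13. In cholesterol synthesis 1 of 15 genes passed, Nsdhl (0.94), a share of 6.67% and near that of all genes.

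**Figure D4:**
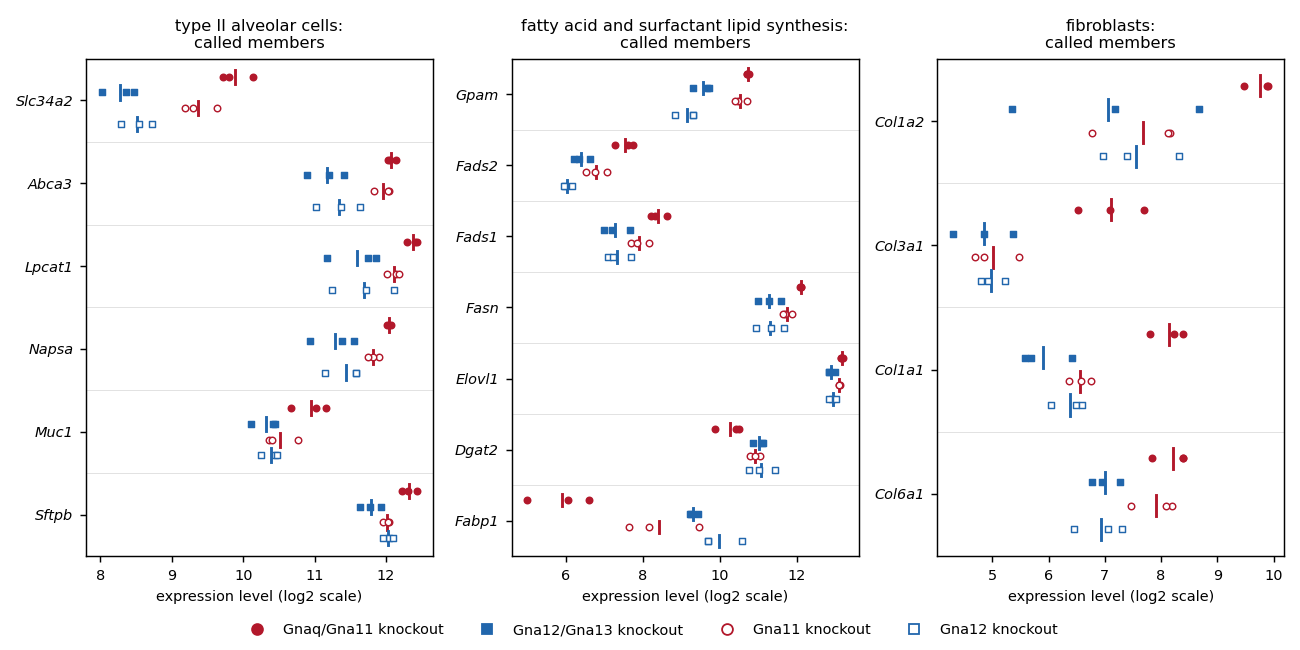
Levels on the log2 scale (x axis) of the called members of the lists of type II markers, lipid synthesis enzymes and fibroblast markers by array, 3 arrays per group; filled symbols are double knockouts, open symbols single knockouts and vertical ticks group means. The Gnaq/Gna11 circles lie to the right of the Gna12/Gna13 squares in every row except Dgat2 and Fabp1, and Col1a2 is spread from 5.35 to 8.67 over the Gna12/Gna13 arrays.

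Some fibroblast markers were higher in Gnaq/Gna11 cells. Of 15 fibroblast markers 4 rose and none fell (26.7% called, beside 6.10% of all genes), with a median of 0.31. Col1a1 was 8.39, 8.22 and 7.81 against 5.68, 5.58 and 6.42 (4.74-fold, log2 difference 2.25, SE 0.262, adjusted p = 0.00138), and its other probe set was 1.41 higher. Col3a1 was 7.69, 6.52 and 7.10 against 4.30, 4.86 and 5.37 (2.26). Both collagens were separated between the doubles, whereas between the singles they differed by 0.19 and 0.03. Col6a1 rose by 1.21 and Col1a2 by 2.69, the latter with wide spread on the Gna12/Gna13 arrays and no difference beyond 0.21 in its dim other probe sets.

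The other 11 fibroblast markers did not pass, and over all 15 the difference was positive in 11 and negative in 4. Among them Pdgfra differed by 0.00, Dcn by -0.10, Lum by 0.08 and Pdgfrb by 0.55. Pdgfra and Lum had mean levels of 4.66 and 3.36, under the median probe set at 5.101, so their small differences say little. The mean of the 15 markers was 7.38 to 7.70 on the Gnaq/Gna11 arrays and 6.41 to 7.29 on the Gna12/Gna13 arrays, and 12 of the 15 were at or above the median level. Leaving out replicate 1 or 2 of Gna12/Gna13 or replicate 2 or 3 of Gnaq/Gna11 left 2 of the 4 calls. Whether the share of fibroblasts has a part in the collagen values was not tested.

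General epithelial markers had a negative difference in 12 of 14 cases, with a median of -0.19. Of these markers 3 fell, the cadherin gene Cdh1 (-0.82), the junction gene Ocln (-0.84) and the keratin gene Krt19 (-0.26), while Epcam differed by 0.20 and did not pass. Between the singles Cdh1, Ocln and Krt19 differed by -0.52, -0.86 and -0.05 without a call. Of these 3, none was called without replicate 2 of Gna12/Gna13, 1 without its replicate 1 or without replicate 1 or 2 of Gnaq/Gna11, and 1 with Eif2s3y as a covariate. Among 27 claudin and junction genes Cldn10 was lowest, at 6.14, 5.90 and 6.57 against 7.68, 8.29 and 7.57 (-1.64, adjusted p = 0.00817), with 0.20 between the singles. Airway markers included 3 lower genes of ciliated cells, Foxj1 (-1.29), Cfap126 (-0.88) and Tppp3 (-0.67), and the goblet cell gene Clca1, higher by 3.56, among 14 measured. Of the keratin and transitional cell list, 2 of 20 were lower, Sfn (-0.53) and Krt19. Of 23 lung epithelial transcription factors, only Foxp2 passed, at 8.93, 8.45 and 8.73 against 7.47, 6.84 and 7.14 (1.55). The shares called were 21.4% of general epithelial, 28.6% of airway, 11.1% of claudin and junction and 10% of keratin and transitional genes. They were 4.35% of the transcription factors and 6.10% of all genes.

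Leukocyte markers were called in both directions, at shares from 0% of B cell to 25% of neutrophil markers beside the 6.10% of all genes. Of 20 pan-leukocyte markers 1 rose, Cytip (0.34), with a median of -0.13 beside -1.11 between the singles. Siglecf, a marker of alveolar macrophages, was the only macrophage marker called of 17 (-1.73), and Cd68, Adgre1 and Csf1r differed by 0.30, 0.27 and -0.25 without passing. Cd207, langerin of dendritic cells, rose by 1.76 (7.41, 7.35 and 6.31 against 5.28, 5.19 and 5.32), as did Il7r of lymphoid cells by 1.52. Of 8 neutrophil markers S100a9 and Mpo (-1.39) fell. None of 7 B cell, 10 eosinophil and mast cell or 11 endothelial markers was called, and the eosinophil and mast cell markers were all below the median level. Rnase2a and Cma1, known from those cells, stand outside that list. The endothelial median was -0.62.

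Genes of G protein signalling itself were called in both directions, read here against the 6.10% of all genes. Of 17 other G protein subunits 1 rose, Gnb4, and 1 fell, Gnaz (-1.20), the alpha subunit Gz. Of 23 effectors of Gq/11 1 rose, the calcium channel gene Orai1, at 9.64, 9.68 and 9.74 against 8.94, 9.22 and 9.05 (0.62), and of 15 calcium, calcineurin and NFAT genes 1 fell, the calcineurin subunit Ppp3r1 (-0.69). Of 19 effectors of G12/13 Limk1 rose and Rhpn2 fell by 1.22. Limk1, a kinase that inactivates the actin-severing protein cofilin, was 10.55, 10.55 and 10.66 against 8.63, 8.74 and 9.37 (3.19-fold, log2 difference 1.67, SE 0.181, adjusted p = 0.000854), with 0.54 between the singles. Of 21 SRF and actin genes Tpm2, a tropomyosin, rose by 1.67 (11.87, 12.30 and 12.02 against 10.56, 9.87 and 10.73) and Actg2 by 0.62, but the median of the list was -0.19.

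Further along these pathways, none of 17 YAP and TAZ pathway genes passed, the nearest being Ccn1 at 0.50 (adjusted p = 0.0526). Of 24 immediate early genes Fosl1 fell by 0.85. Among 25 receptors for lysophosphatidic acid, sphingosine 1-phosphate, thrombin and related ligands, Lpar3 fell, at 6.58, 5.87 and 6.22 against 7.95, 8.43 and 7.70 (3.48-fold, log2 difference -1.80, SE 0.252, adjusted p = 0.0032). The singles differed the other way by 0.29, and the departure had an adjusted p of 0.0605. Of 17 regulators of G protein signalling Rgs10 rose by 1.14. The lists of this paragraph were called at shares from 0% to 5.88%, beside 6.10% of all genes.

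In the TGF-beta list, 2 of 22 genes rose and 1 fell (13.6% called, beside 6.10% of all genes), with a median of 0.00. These were Tgfb3 (0.40, at a level below the median of the array), the latent TGF-beta binding protein Ltbp3 (0.51) and the signal transducer Smad3, at 10.90, 11.26 and 11.31 against 11.96, 11.68 and 11.47 (-0.55, adjusted p = 0.0382). Between the singles Tgfb3, Ltbp3 and Smad3 differed by 0.04, 0.49 and -0.19 without a call. Each of the 3 calls between the doubles was lost with at least 5 of the 6 arrays left out in turn.

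Il33, an alarmin that epithelium releases to activate type 2 immunity, was the only member called of 16 in its pathway list (6.25%, near the 6.10% of all genes). It read 11.43, 11.17 and 11.52 on the Gnaq/Gna11 arrays and 8.20, 8.11 and 9.29 on the Gna12/Gna13 arrays (7.16-fold, log2 difference 2.84, SE 0.458, adjusted p = 0.00617). The arrays did not overlap, and the singles also differed by 1.95 (adjusted p = 0.0488). The departure of doubles from singles, 0.89, had an adjusted p of 0.682. Among genes of alternatively activated macrophages, Retnla rose by 0.51 and the cytokine Il10 was 3.99-fold lower, with the other 12 of 14 not passing. This was 14.3% of the list, beside 6.10% of all genes. Between the singles Il10 had a still wider log2 difference of -3.14, also called, and Retnla differed by 0.06 without a call.

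Of 28 chemokine and cytokine genes 3 fell and none rose (10.7% called, beside 6.10% of all genes), with a median of -0.02. Ccl3 was 6.76, 6.80 and 6.73 against 8.75, 8.57 and 9.16 (4.18-fold, log2 difference -2.06, SE 0.257, adjusted p = 0.00206), Cxcl10 fell by 1.34 and Cxcl2 by 1.17. Between the singles Cxcl2 differed by -1.86, also called, and Ccl3 and Cxcl10 by -0.82 and -0.47 without a call. Leaving out any 1 array except replicate 1 of Gnaq/Gna11 left 1 call in this list. In antigen presentation, Psmb9, an immunoproteasome subunit, was 9.14, 10.23 and 10.13 against 7.86, 8.07 and 8.18 (1.80), Psme1 rose by 0.26 and the class II gene H2-Eb1 by 0.67. None of 22 interferon response genes was called. Of 15 complement genes C1ra (1.64) and Cfi (0.96) rose and the inhibitor Cd55 (-0.75) fell, and none of these was called without replicate 2 of Gna12/Gna13. The shares called were 18.2% of class I, 11.1% of class II and 20% of complement genes, beside the same 6.10%.

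Matrix genes were called in both directions. The shares called were 19% of metalloproteinases and their inhibitors, 10.5% of cathepsins and serpins and 9.52% of basement membrane and adhesion genes, beside 6.10% of all genes. Timp1, an inhibitor of metalloproteinases, was 9.76, 9.38 and 9.61 against 5.62, 7.51 and 7.59 (6.38-fold, log2 difference 2.67, SE 0.465, adjusted p = 0.00853). Between the singles its difference was -1.26, and the departure of 3.93 had an adjusted p of 0.0569. Mmp12, macrophage elastase, rose by 1.57 at low levels (5.11, 6.20 and 4.92 against 3.20, 3.91 and 4.42), and Adamts5 and Mmp23 fell by 0.98 and 1.02, the other 17 of 21 in the list not passing. Of 19 cathepsins and serpins Serpinb9 rose by 1.01 and Ctsh by 0.26. Among 21 basement membrane and adhesion genes, Itga9 rose and the laminin gene Lamb1 fell, at 6.63, 5.77 and 6.02 against 7.61, 7.97 and 7.47 (-1.54), and with Eif2s3y as a covariate 6 members were higher.

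None of 17 mitosis, 18 DNA replication and 20 unfolded protein response genes passed, with medians of 0.16, 0.14 and 0.04. This was 0% of each list beside 6.10% of all genes, and lists this short would hold few calls at that share. In the same order, 14, 13 and 12 members had a positive difference, and 10, 12 and 19 were at or above the median level. The nearest were Bub1 at 0.51 (adjusted p = 0.117), Mcm2 at 0.91 (0.0602) and Atf4 at -0.28 (0.0964). Of 24 FGF receptor and EGF family genes Spry1, an inhibitor of receptor tyrosine kinase signalling, rose by 0.92. Of 20 prostaglandin and leukotriene genes Ptgds rose and Alox12 fell by 1.28, and of 13 iron genes Lcn2 rose by 0.33 and Cp, ceruloplasmin, fell by 1.05. Alox12 also differed by -1.25 between the singles, without a call. The shares called were 4.17% of FGF receptor and EGF family, 10% of prostaglandin and leukotriene and 15.4% of iron genes, beside 6.10% of all genes.

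**Figure D5:**
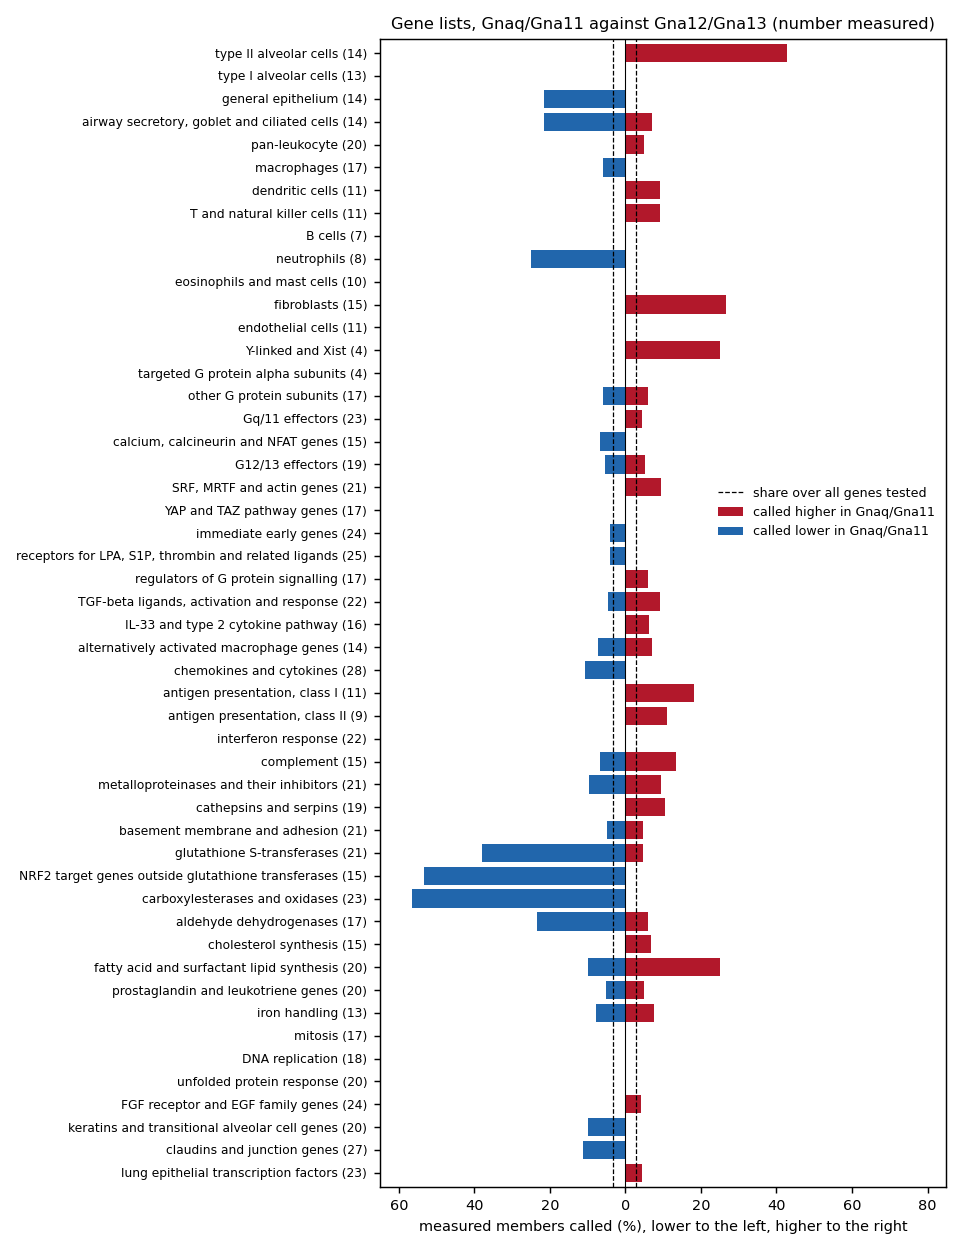
Share of the measured members of each gene list (number in brackets) that was called higher (red, right) or lower (blue, left) in Gnaq/Gna11 against Gna12/Gna13 cells; dashed lines give the shares over all genes, 2.70% higher and 3.39% lower. The longest blue bars are those of carboxylesterases and oxidases, other NRF2 targets and glutathione S-transferases, and the longest red bar is that of type II markers.

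Genes lying near the targeted genes were counted separately. Of the 25 tested genes on either side, 4 of 50 were called around Gnaq on chromosome 19 (8%), 3 around Gna11 on chromosome 10 (6%), 2 around Gna12 on chromosome 5 (4%) and 1 around Gna13 on chromosome 11 (2%), near the 6.10% of all genes. Near Gnaq these were Cblif (0.97), Tmc1 (0.68), Aldh1a1 (-0.72) and Pcsk5 (-1.78), a proprotein convertase. Near Gna11 they were Tle6 (1.59), Nfic (1.21) and 1500009L16Rik (-1.61), near Gna12 Lfng (-0.88) and Iqce (means of 9.06 against 10.06), and near Gna13 Tex2 (1.00). Tle6, a transcriptional co-repressor, was 11.34, 11.66 and 11.29 against 9.73, 9.59 and 10.20 and was also higher between the singles (1.19, called). Over whole chromosomes the share of genes called ran from 2.81% to 9.17%, the highest being on chromosome 19.

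The agreement of probe sets and the level bear on all of these values. Of the called genes, 540 had other probe sets, and 808 of those 1035 (78.1%) differed in the same direction, 168 of them with a call. At or above the median level it was 479 of 556 (86.2%). Genes whose higher group lay under the median level were called in 1.08% of 5831 cases, against 8.46% of the others. Xist, the RNA of the inactive X chromosome, was itself called, at 8.84, 7.29 and 9.31 against 6.27, 6.72 and 5.73 (2.24). Its other probe sets, tested among all probe sets, differed by 2.87 and 2.47 and were not called. The 3 Y-linked genes measured in the same list did not pass, and the Eif2s3y levels are given above. With Eif2s3y as a covariate 1216 genes were called, of which 804 were among the 1109. Among the genes named only by their log2 difference or their array values above, the calls of Gclc, Gstz1, Gstt1, Taldo1, Cbr1, Cyp2b10, Lpcat1, Muc1, Napsa, Fasn, Fads1, Dgat2, Foxj1, Cytip, Siglecf, Il7r, Mpo, Gnaz, Orai1, Ppp3r1, Actg2, Il10, Cxcl2, Cxcl10, Psme1, H2-Eb1, Mmp12, Adamts5, Mmp23, Serpinb9, Ctsh, Nsdhl, Alox12, Cp, Lcn2, Xist, Fmo1, Mgst2, Aldh2, Aldh1l1, Elovl1, Col6a1, Col1a2, Cfap126, Tppp3, Foxp2, Spry1 and all neighbours of the targeted genes except Tle6 and Aldh1a1 did not hold with at least 1 array left out. Of the 139 named called genes, 69 lost their call without replicate 2 of Gna12/Gna13, 49 without its replicate 1 and 31 without its replicate 3, and 37, 58 and 54 without replicates 1, 2 and 3 of Gnaq/Gna11. Those of Hal, Rnase2a, Itga9, Gnb4, Ces1g, Ces1f, Pon1, Gstm2, Gsta2, Gclm, Slc34a2, Gpam, Col1a1, Limk1, Tpm2, Lpar3, Il33, Ccl3 and Timp1 held in all alternatives run.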

How the data were processed

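The deposited log2 values summarise each probe set, which the authors did by RMA according to the submitters' processing notes. RMA corrects background, normalizes between arrays and summarises probes, so a shift common to all genes would be removed. The sources used here give neither the base of the logarithm nor the software version or genome build. Values ran from 2.13 to 14.1 and were read as log2, the scale of RMA. RNA was amplified from 10 ng per sample, per the labels.

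Of 45101 probe sets, 64 were controls, 34945 had 1 gene in the platform annotation, 932 several and 9160 none. Symbols were updated through the RefSeq gene table of GRCm38.p6, which held 34741 probe sets. Of 18193 genes 9010 had several probe sets.

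In limma 3.58.1 (R 4.3.3), each of the 4 groups had its own mean in a fit of all 12 arrays (lmFit, then eBayes with trend), so the single knockouts share in the estimate of the spread. Tests were two-sided, with Benjamini-Hochberg adjustment over 18193 genes and calls at an adjusted p under 0.05. The code was tested on simulated data. Same-numbered arrays of the doubles deviated together with r = 0.004, 0.008 and 0.036, under the threshold of 0.1, so numbers were not taken to pair samples. The number of arrays limits the precision.

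Named genes were the 4 targeted genes, the 12 largest rises and 12 largest falls among called genes with non-overlapping arrays, the higher mean no lower than the median level, and a symbol that is no clone, predicted or RIKEN name, up to 4 called members of each list by adjusted p, called genes whose difference departed from the singles or was shared with them, and called neighbours of the targeted genes. Members of the lists of detoxifying enzymes, lipid synthesis and surfactant genes beyond these, and markers of cell types that did not pass, were chosen after their values were seen. Of 903 entries in 50 lists, 842 were measured. The comparison, the members and the lists were chosen with earlier results of these data known.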

Additional observations from a re-analysis of the deposited data

Results flagged for a closer look

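For 13 genes the difference between the doubles departed from that between the singles at an adjusted p under 0.05 in limma (0.0465 or less). In 9 of them Gnaq/Gna11 cells were low against Gna12/Gna13 cells while the singles differed little or the other way. The departures were -5.68 for Ces1g, -2.51 for Pon1, -1.82 for Aox3, -1.49 for Gstm2, -1.46 for Krtap17-1, -1.21 for Osbpl6, which encodes an oxysterol-binding protein, -1.19 for Pgrmc1, a haem-binding membrane protein, -1.13 for Ephx1 and -0.98 for 2310034G01Rik. Osbpl6 read 9.55, 9.73 and 9.75 on the Gnaq/Gna11 arrays and 11.12, 11.06 and 10.80 on the Gna12/Gna13 arrays, with 10.65 and 10.75 as means of the singles.

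In the other 4 the departure was positive, at 3.51 for AA467197, 3.17 for the chemokine receptor gene Ccr7, 3.08 for the chemokine gene Ccl22 and 2.30 for the chemokine gene Ccl17. None of these was called between the doubles. Ccl17 was 13.19, 13.11 and 13.18 on the Gnaq/Gna11 arrays and 12.42, 12.49 and 13.00 on the Gna12/Gna13 arrays, while the singles were at 10.93 in Gna11 and 12.71 in Gna12 cells. The departure of these 4 thus rests on low values in the Gna11 single knockout. The pan-leukocyte mean was lowest in that group as well, at 8.48 ± 0.278 (SD, n = 3) against 9.61 ± 0.291 in Gna12 cells, and with it as a covariate none of the 13 departures was called. Ccl17 then departed by 1.87 (adjusted p = 0.154 in limma) and Ccr7 by 2.53 (0.471). With the Gapdh measure as covariate none was called either. With Eif2s3y as covariate 9 departures were called, 7 of them among the 13.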

How the results depend on the processing

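Against 1109 genes called between the doubles, 605 were at least 2-fold different, a limit chosen after seeing the data, 843 were called from the 6 double knockout arrays alone, and the other alternatives without an array left out called 937 (pan-leukocyte covariate) to 1640 (array quality weights). With 1 array left out 369 to 842 were called. With the replicate block 1090 were called, 935 of them shared. Against 13 genes departing from the singles, 35 were called with all probe sets of a gene averaged, 37 after a filter at the median level, 22 without the intensity trend and 28 with array weights. With the Eif2s3y covariate 9 were called, with the pan-leukocyte covariate 1 and with the Gapdh covariate 0. With 1 array left out 4 to 40 were called. Unadjusted, 1967 genes had p under 0.05 for this departure in limma. Against 513 calls between the singles, the pan-leukocyte covariate and the Gapdh covariate each left 0, where 3795 genes had an unadjusted p under 0.05 without them, and leaving out 1 array gave 296 to 567. Of 139 named called genes, 62 kept their call in all alternatives run, 77 lost it in at least 1, most often (69) without replicate 2 of Gna12/Gna13, and none reversed. The causes were not tested. Signal near background limits the genes under the median level.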
